A study of Rattus norvegicus with 2 samples.

Results

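The cadherins and protocadherins are calcium-dependent adhesion proteins, and they were taken here as every gene whose symbol begins with Cdh or Pcdh, apart from the cadherin-related Cdhr genes, and that had 100 or more unique molecular identifiers (UMIs, single counted RNA molecules) summed over the METH and saline matrices. Of the 25399 genes in the tables, 71 rows matched by symbol and 38 of them reached 100 UMIs. Those 38 were 4 type I classical cadherins, 12 type II classical cadherins, the truncated cadherin Cdh13, Cdh23, 4 delta-1 and 5 delta-2 protocadherins, Pcdh15 and 10 genes of the clustered protocadherin arrays. Just inside the limit were Pcdhga10 with 106 UMIs and Pcdhb21 with 107, and just outside it were Pcdhga5 with 99 and Pcdhb19 with 92. The study measured nuclear RNA of the orbitofrontal cortex, a prefrontal area used in valuing outcomes, in 8-week-old male Sprague-Dawley rats. One library came from the group given methamphetamine (METH, 1 mg/kg, intraperitoneal) for 7 days, and the other from the group given saline by the same route for 7 days, in a model of sensitization to the drug. All rats were anesthetized with pentobarbital before tissue was taken from 4 per group, and the sources do not say how the 4 were joined into a library. A single library stands for each group, so the variation among rats cannot be seen and no difference between METH and saline below has a test.

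Classical cadherins join neighbouring cells by binding the same or a related cadherin on the other membrane, and their cytoplasmic tails reach actin through beta-, delta- and alpha-catenin. Type II cadherins bind within specificity groups, of which the best described are Cdh6 with Cdh9 and Cdh10, Cdh8 with Cdh11 and Cdh24, and Cdh7 with Cdh12, Cdh18, Cdh20 and Cdh22. In cortex their layered and cell-type-restricted expression is a textbook example of a combinatorial adhesion code. The delta protocadherins act in axon guidance, synapse formation and cell sorting, and the clustered protocadherins give each neuron a surface identity used in self-avoidance.

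Promoter sequences are shown for 4 of the 7 members with a restricted cell class. In that class the level was at least 3 times that in any other of the 7 classes compared. Unnamed clusters and classes under 50 nuclei per library were left out of this rule. It took each class as a whole, and Cdh7 was uneven among interneuron subclasses, as given below. An unnamed cluster led by Bnc2 had a higher Cdh19 level than oligodendrocytes. These sequences are shown because they lie beside the sharpest cell-type patterns described below. They are the 250 bases before the annotated start, from RefSeq on build GRCr8, 5′ to 3′ on the gene's own strand, and capitals mark matches to the E-box letters CANNTG. Of the 38 members, 30 had an entry, and of the 7 restricted members 4 did. Cdh19 (chr13:28533754-28534003, minus strand) was the oligodendrocyte member, Pcdh15 (chr20:14824799-14825048, minus strand) the oligodendrocyte precursor member, Cdh7 (chr13:27197332-27197581, plus strand) the inhibitory neuron member and Pcdh18 (chr2:135996827-135997076, minus strand) the mural cell member.
Cdh19: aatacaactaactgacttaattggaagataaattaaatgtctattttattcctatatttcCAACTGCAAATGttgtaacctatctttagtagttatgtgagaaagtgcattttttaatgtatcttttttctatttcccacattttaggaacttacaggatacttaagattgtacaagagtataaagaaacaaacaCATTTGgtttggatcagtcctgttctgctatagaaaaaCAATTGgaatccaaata
Pcdh15: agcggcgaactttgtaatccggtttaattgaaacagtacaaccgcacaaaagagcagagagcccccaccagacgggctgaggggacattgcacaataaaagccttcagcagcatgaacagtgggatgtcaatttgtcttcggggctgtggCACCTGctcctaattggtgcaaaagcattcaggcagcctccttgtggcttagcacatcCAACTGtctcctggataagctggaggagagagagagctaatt
Cdh7: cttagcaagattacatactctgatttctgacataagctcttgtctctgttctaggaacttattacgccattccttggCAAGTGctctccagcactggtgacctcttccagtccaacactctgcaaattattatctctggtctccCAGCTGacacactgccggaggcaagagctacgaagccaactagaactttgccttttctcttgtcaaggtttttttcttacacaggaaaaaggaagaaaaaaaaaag
Pcdh18: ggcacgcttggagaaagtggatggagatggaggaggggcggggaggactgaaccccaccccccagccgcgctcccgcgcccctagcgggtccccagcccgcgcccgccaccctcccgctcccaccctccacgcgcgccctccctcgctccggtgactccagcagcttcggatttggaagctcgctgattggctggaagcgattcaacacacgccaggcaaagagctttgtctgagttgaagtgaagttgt

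The 4 windows differed in base composition. The Cdh19 window held 0 CpG dinucleotides, the Cdh7 window 3, the Pcdh15 window 6 and the Pcdh18 window 20, against a median of 5 over all 33469 promoter windows of this length and 7.5 over the 30 windows of members. E-box letters, searched on both strands, occurred 4 times before Cdh19 (at 190, 184, 55 and 17 bases before the start), 2 times each before Pcdh15 and Cdh7, and 0 times before Pcdh18. The letters ACAANG or their reverse complement, a short core found in many SOX-type sites, occurred 2 times before Pcdh15 and 1 time before Pcdh18. TATAAA on the forward strand occurred 1 time before Cdh19. Among all windows, 65.5% held an E-box match, 36.9% an ACAANG match and 8.06% a TATAAA match, and among the 30 members' windows the counts were 17, 13 and 5. The first E-box pair of Cdh19 is directly adjacent. A match of such short letters is a description of the window and not a binding site.

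There were 5543 barcodes and 44969322 UMIs for METH, and 6969 barcodes and 42221257 UMIs for saline. After removal of barcodes under 500 genes, over 5% mitochondrial UMIs or called as doublets, 5159 METH and 6491 saline nuclei remained, and 9 barcode sequences occurred in both libraries. Clusters were formed without the family genes and named from marker lists. All class names therefore mean "-like" nuclei, and the suffix is left out below. In all, 7 classes had at least 50 nuclei in each library, from 2150 METH and 3492 saline excitatory neurons down to 101 and 123 mural cells. Nuclei of the METH library were deeper: the median was 9399.5 UMIs in its excitatory neurons against 6383 in saline. The libraries also differed in tissue content. A cluster led by Ndst4 and Trdn had 202 METH and 1 saline nuclei and the highest level of the olfactory bulb marker list, and a cluster led by Bnc2 had 33 METH and 3 saline nuclei and the highest level of the olfactory ensheathing glia list. Both stayed unnamed and outside every comparison.

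Levels are given as CPM, a gene's share of all UMIs of the same nuclei scaled to a common total, with exact Poisson 95% intervals where shown. Counts from the 3′ end of nuclear RNA are not per length, so a gene was compared across groups of nuclei and never with another gene. RNA of broken cells can reach other droplets, and the source of the marker counts below was not tested. The summed excitatory markers stood at 6.59% (METH) and 10.7% (saline) of their excitatory level in astrocytes, 7.48% and 10.9% in oligodendrocytes and 22.2% and 18.7% in oligodendrocyte precursors. In endothelial cells they reached 27.0% and 38.4% and in mural cells 39.6% and 52.1%, so levels of neuronal members in the vascular classes are not read as their own. Of the excitatory marker UMIs in endothelial cells, 86 of 151 in METH and 177 of 264 in saline lay in 3 and 8 deep nuclei. Other clusterings did not place these nuclei in endothelium.

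Of the 32 members with at least 100 UMIs in the 7 classes together, 26 had the same highest class in both libraries. The family took 0.540% of all UMIs in saline excitatory neurons and 0.495% in METH, 0.562% and 0.547% in inhibitory neurons, and 0.737% and 0.695% in oligodendrocyte precursors. In oligodendrocytes the share was 0.175% in saline and 0.160% in METH. When each nucleus was thinned to 1000 UMIs, a saline oligodendrocyte precursor showed a mean of 4.69 members and a METH one 4.43, an excitatory neuron 3.75 and 3.50, an astrocyte 2.36 and 2.14, and an oligodendrocyte 1.54 and 1.26.

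**Figure D1:**
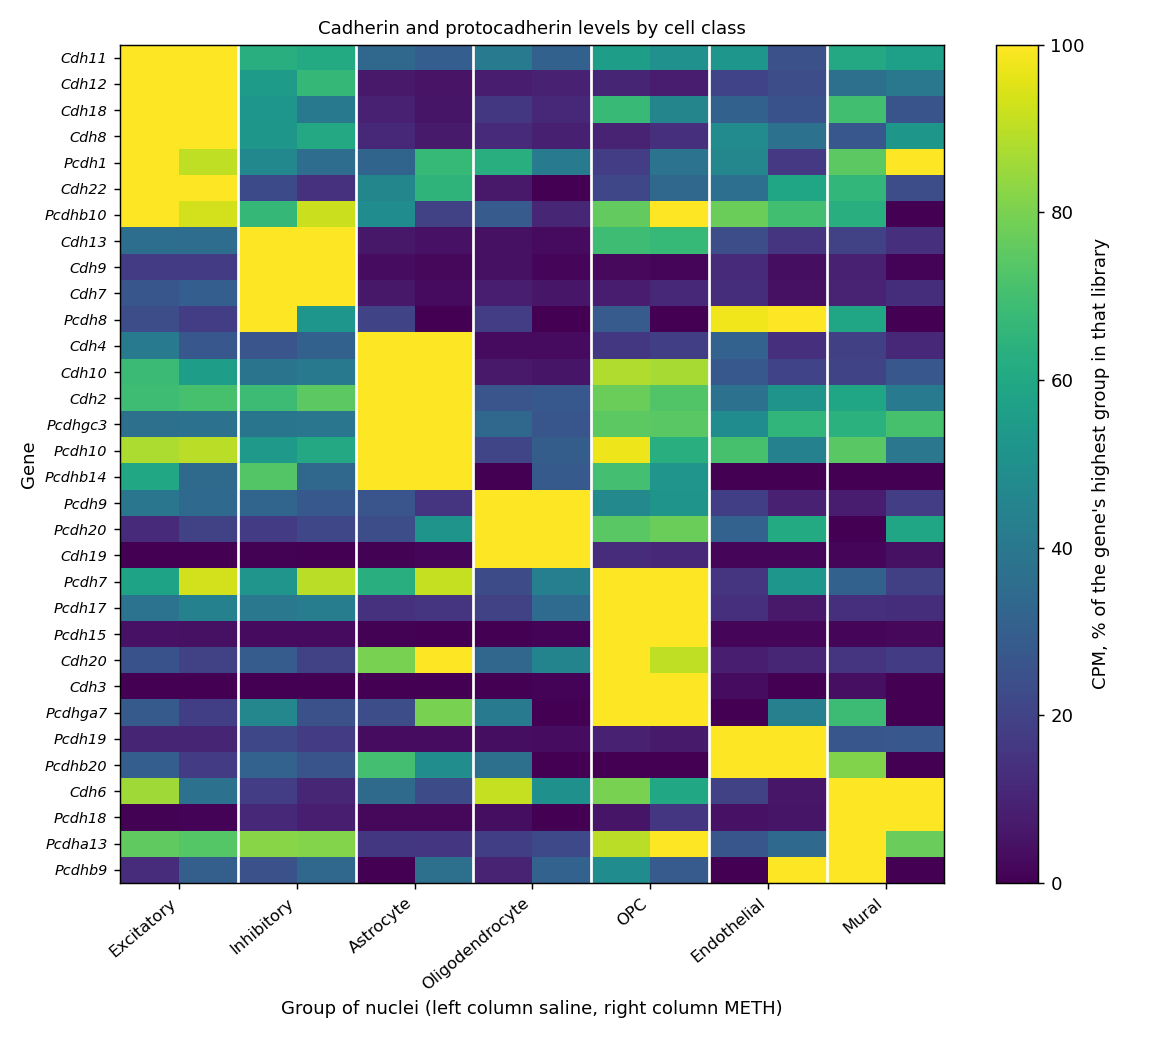
Heat map of the 32 members with at least 100 UMIs in the 7 cell classes. Each row is a gene, each pair of columns a class (saline left, METH right), and the colour is CPM as a percentage of that gene's highest class in the same library. Cdh19, Cdh3, Pcdh15, Cdh9, Cdh7, Pcdh18 and Pcdh19 each show a single bright class, whereas Cdh2 is spread over most classes. OPC stands for oligodendrocyte precursors.

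Among the members of the oligodendrocyte lineage, Pcdh15 marked the precursors. Pcdh15 is the tip-link protocadherin of inner-ear hair cells and a known marker of these glia. It stood at 2109 CPM in saline precursors and 1980 in METH, and the next class, excitatory neurons, had 106 and 92.3. After thinning, 85.3% of saline and 82.8% of METH precursors had a Pcdh15 UMI, against 1.58% and 0.236% of astrocytes, nuclei of like depth (median 1934 and 2375 UMIs in precursors, 2011 and 2419.5 in astrocytes). Without thinning the precursor shares were 95.7% and 94.9%.

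Cdh3, P-cadherin, followed Pcdh15 at a lower count and was found in precursors at 127 CPM in saline and 177 in METH. It was at 0 UMIs in the astrocytes of both libraries and under 0.5 CPM in excitatory and inhibitory neurons. Cdh19, a type II cadherin of myelinating glia, was instead found in mature oligodendrocytes at 269 CPM (saline) and 258 (METH), with 34.3 and 29.5 in precursors and at most 1.19 in neurons. The thinned share of oligodendrocytes with a Cdh19 UMI was 22.7% in saline and 20.7% in METH, against 0.395% and 0.236% of astrocytes; unthinned the oligodendrocyte shares were 31.0% and 37.7%. Thus, among the 7 classes compared, precursors were marked by Pcdh15 and Cdh3 and oligodendrocytes by Cdh19, in both libraries.

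Further glial members were graded rather than restricted. Pcdh17, a delta-2 protocadherin, was highest in precursors (416 CPM saline, 343 METH), at 159 and 151 in excitatory neurons. Pcdh9, a delta-1 protocadherin, was highest in oligodendrocytes, at 135 and 155 CPM. Cdh10 was highest in astrocytes at 1367 CPM (saline) and 1258 (METH), then precursors at 1205 and 1093. Cdh2, N-cadherin, which is used by most neural cells, was also highest in astrocytes (511 and 470 CPM) but reached 352 and 332 in excitatory and 351.5 and 351 in inhibitory neurons. Cdh4, R-cadherin, stood at 105 and 100.3 CPM in astrocytes against 43.2 and 27.4 in excitatory neurons. Cdh23, a long cadherin which pairs with Pcdh15 in hair-cell tip links, was at 24.5 and 18.8 CPM in precursors and under 0.3 in neurons. Most of its UMIs lay outside the named classes. An unnamed cluster led by Ctss and Ikzf1 held 181 of its 280 saline UMIs (61.6 CPM) and 114 of its 182 METH UMIs (25.1 CPM). An unnamed cluster led by Ikzf1 and Slco2b1 had 331 and 215 CPM.

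The vascular classes had a protocadherin each. Pcdh19, a delta-2 protocadherin whose gene is mutated in a form of childhood epilepsy, was found in endothelial cells at 378 CPM in saline and 373 in METH. Mural cells had 101 CPM in both libraries, and no other class passed the 81.9 CPM of saline inhibitory neurons. That class level hides higher subclasses. Chandelier nuclei, only 17 in saline and 25 in METH, had Pcdh19 at 509 and 217 CPM, in saline above endothelium. Sncg interneurons had 169 and 174.5 CPM, above mural cells. Pcdh18 was found in mural cells at 85.7 CPM (95% interval 49.9 to 137) in saline and 84.4 (47.3 to 139) in METH, against 9.68 and 6.99 in inhibitory neurons. Cdh5, VE-cadherin, the classical cadherin of endothelium, had 76 UMIs in all and was not a member.

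**Figure D2:**
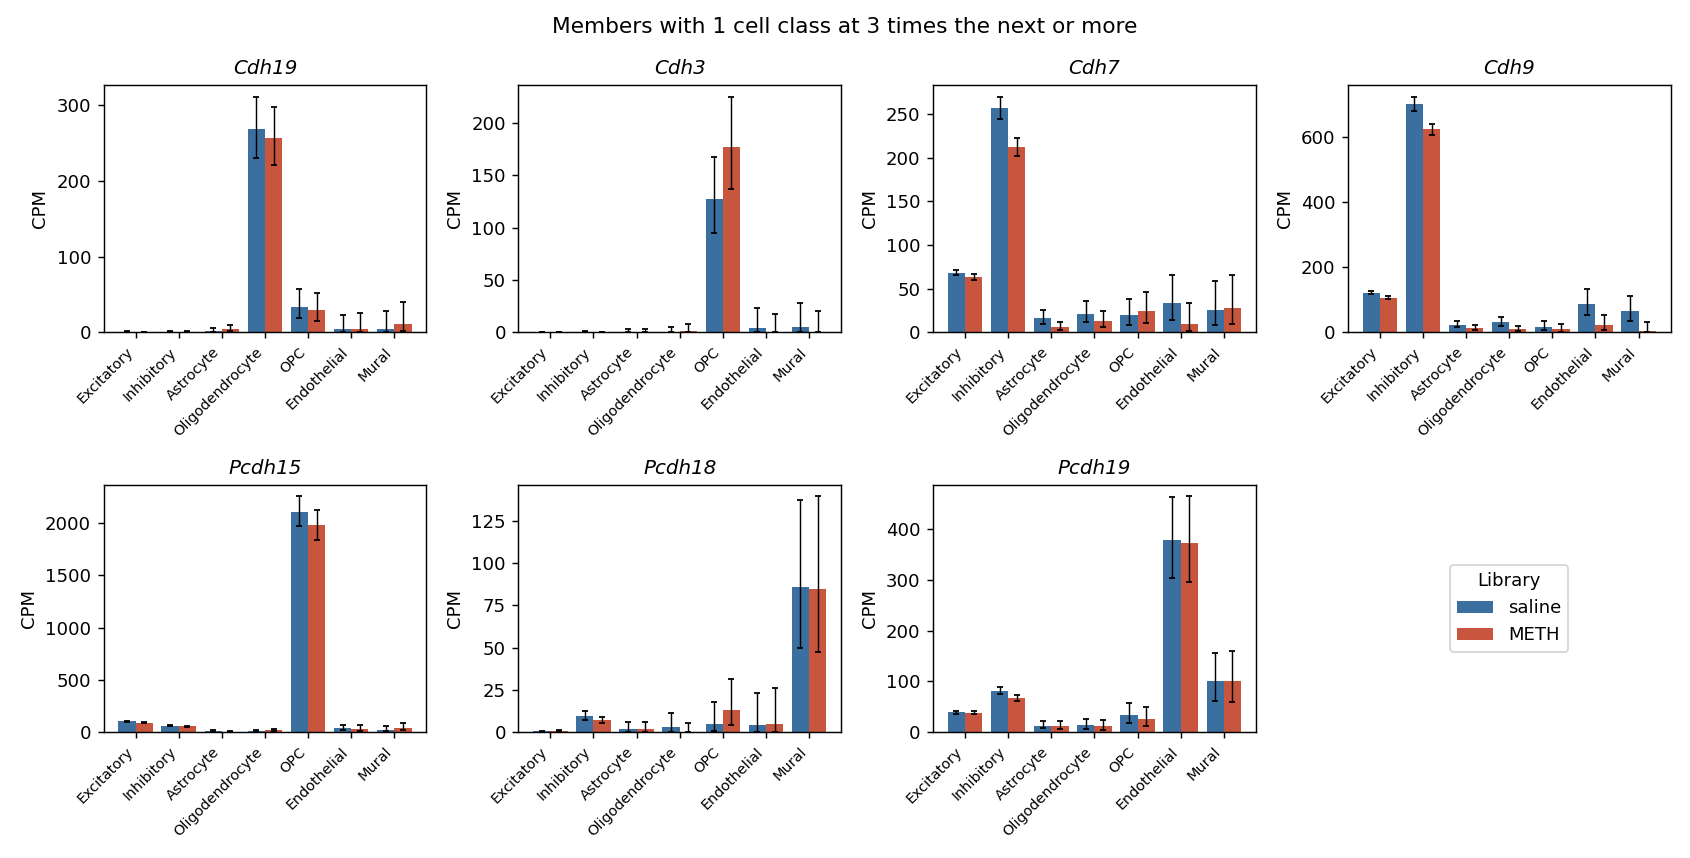
CPM (linear axis from 0) of the 7 members with a class at 3 times the next or more, in saline (blue) and METH (red), over the 7 classes (OPC, oligodendrocyte precursors). Error bars are exact Poisson 95% intervals that cover counting error only. Both libraries place Pcdh15 and Cdh3 in precursors, Cdh19 in oligodendrocytes, Cdh9 and Cdh7 in inhibitory neurons, Pcdh19 in endothelium and Pcdh18 in mural cells.

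In neurons the type II cadherins divided the classes and layers. Cdh9 stood at 702 CPM in saline and 623 in METH inhibitory neurons against 122 and 107 in excitatory neurons. Cdh7 stood at 257 and 212 CPM against 68.5 and 63.7. Cdh13, the truncated, glycolipid-anchored T-cadherin, was at 1407 and 1529 CPM in inhibitory and 506 and 545 in excitatory neurons. The reverse order held for Cdh12 (575 and 452 CPM excitatory, 315 and 300.4 inhibitory), Cdh8 (466 and 436 against 247 and 263), Cdh11 (702 and 659 against 443 and 402) and Cdh18 (441 and 501 against 231 and 203).

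Among interneurons, Cdh9 was the member with the sharpest subclass. Somatostatin (Sst) interneurons had 1856 CPM in saline and 1601 in METH, parvalbumin (Pvalb) interneurons 317 and 341, and Vip interneurons 30.2 and 27.7. Its level varied within the Sst class: the cluster led by Pappa2 had 2078 and 1852 CPM, that led by Trabd2b 2049 and 1544, and that led by Adgrv1 901.5 and 812. It was also uneven in Pvalb interneurons, at 354 and 383 CPM in the cluster led by Egflam but 42.4 and 33.6 in that led by Mybpc1.

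Cdh13 showed the same leading subclass, with 2227 CPM in saline and 2534 in METH Sst interneurons, 1379 and 1433 in Pvalb, 737 and 699 in Vip and 232 and 199 in Lamp5 interneurons. Cdh7 was shared by Pvalb (411 and 320 CPM) and Sst interneurons (333 and 317), whose order was not separated in METH, and was at 20.6 and 43.7 in Lamp5. Within Sst, Cdh7 had 414 and 461 CPM in the Pappa2 cluster but 85.5 and 77.6 in the Trabd2b cluster. Cdh12 ran the other way, at 149 and 141 CPM in the Pappa2 cluster and 709 and 788.5 in the Trabd2b cluster. Cdh12 likewise marked the Pvalb cluster led by Mybpc1, at 1095 and 890.4 CPM against 261 and 239 in that led by Egflam. In each of these pairs of clusters the 95% counting intervals of the levels did not overlap. The pairs were chosen after the levels were seen. The share of all genes without overlap between the same clusters was not counted, so this does not set these members apart.

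Among the 5 interneuron subclasses with 50 nuclei or more per library, Sncg interneurons, a cholecystokinin-type group, had the highest Pcdh19 (169 and 174.5 CPM) and Pcdh20 (38.6 and 24.9), and Lamp5 interneurons had Pcdh19 at 1.72 and 1.36 CPM. Pcdh15 reached 180 and 137 CPM in Vip and 142 and 108 in Sncg interneurons but 7.46 and 12.1 in Pvalb. Chandelier nuclei, only 17 in saline and 25 in METH, had Cdh11 at 949 and 783 CPM, the highest of any interneuron cluster in each library, and Cdh13 at 89.9 and 57.3. Their Pcdh19 was above that of Sncg interneurons, at 509 CPM in saline (51 UMIs, 379 to 670) and 217 in METH (34 UMIs, 150 to 303), with the METH interval overlapping that of Sncg. The family as a whole took 0.826% and 0.816% of the UMIs of Sst interneurons and 0.229% and 0.231% of those of Lamp5 interneurons. After thinning this was a mean of 4.50 and 4.37 members per Sst nucleus and 1.70 and 1.82 per Lamp5 nucleus.

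**Figure D3:**
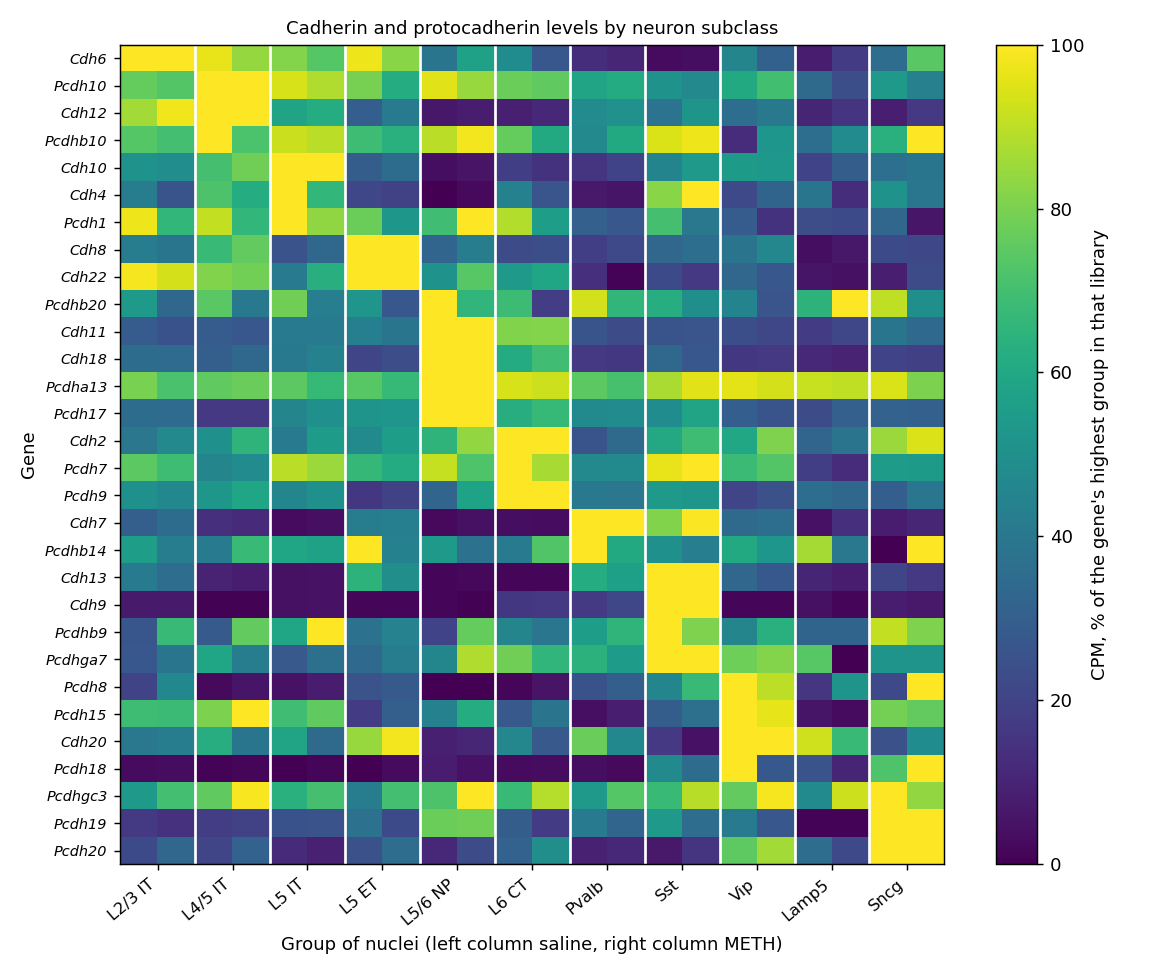
Heat map of the 30 members with at least 100 UMIs in the 11 neuron subclasses with 50 nuclei or more per library. Rows are genes, each pair of columns a subclass (saline left, METH right; IT intratelencephalic, ET extratelencephalic, NP near-projecting, CT corticothalamic), and the colour is CPM as a percentage of the gene's highest subclass in that library. Cdh9 and Cdh13 are brightest in Sst interneurons, Cdh10 in layer 5 IT, and Cdh11 and Cdh18 in layer 5/6 NP and then layer 6 CT neurons.

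Across excitatory subclasses, 23 of the 26 members with 100 UMIs had the same highest subclass in both libraries, and no member reached 3 times the next. Cdh10 rose through the intratelencephalic (IT, cortex-projecting) types: 820 CPM in saline and 646 in METH layer 2/3, 1127 and 1031 in layer 4/5 and 1599 and 1314 in layer 5 IT. It was at 58.6 and 70.7 CPM in layer 5/6 near-projecting (NP) neurons. Cdh11 and Cdh18 had the opposite layout. Cdh11 was at 1722 and 1597 CPM in NP and 1394 and 1304 in layer 6 corticothalamic (CT) neurons, against 504 and 403 in layer 2/3. Cdh18 was at 1149 and 1161 CPM in NP, 705 and 806 in CT, and 240 and 273 in layer 5 extratelencephalic (ET, brainstem-projecting) neurons.

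Cdh12 was an upper-layer and layer 4/5 gene, at 729 and 642 CPM in layer 2/3 and 847 and 657 in layer 4/5 IT, against 53.3 and 50.8 in NP and 73.7 and 76.2 in CT. The 2 layer 4/5 clusters were unlike: that led by Pld5 had 1390 and 1200 CPM and that led by Hgf 456 and 381. Cdh8 separated them the other way, with 792 and 783 CPM in the Hgf cluster and 444 and 423 in the Pld5 cluster, and was highest in ET neurons (961 and 870). Cdh13 was highest in ET (1437 and 1251 CPM), then layer 2/3 (906 and 904), and was at 42.1 and 44.1 in CT and 33.0 and 55.3 in NP. Cdh7 had the same first pair, 173 and 138 CPM in ET and 125 and 113 in layer 2/3.

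Cdh2 was highest in CT neurons at 682 and 533 CPM. Cdh9 was found in CT at 303 and 264 CPM and in an unnamed excitatory cluster led by Eya1 and Tll2 at 516.5 and 435, but at 12.5 and 8.94 in layer 4/5 IT. Pcdh17 was highest in NP (397 and 332 CPM) and lowest in layer 4/5 IT (66.1 and 54.6). Pcdh19 was highest in NP at 131 and 137 CPM, against at most 63.5 and 44.8 in the other 5 excitatory subclasses. Among the named excitatory subclasses, members of a single specificity group thus had different leading ones, Cdh10 in layer 5 IT and Cdh9 in CT. Cdh9 was higher still in the unnamed cluster led by Eya1 and Tll2. Likewise Cdh8 led in ET and Cdh11 in NP. Cdh6 was less layered, at 87.4 and 77.5 CPM in layer 2/3, 85.3 and 63.7 in ET and 42.5 and 21.0 in CT.

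The clustered arrays were seen almost wholly through 2 rows. Pcdha13 held 32281 UMIs and Pcdhgc3 7394, while the 5 beta members held 1146 or fewer each, and 27 of the 37 clustered rows did not reach 100 UMIs. Isoforms of the alpha and of the gamma arrays share their 3′ constant exons, so a 3′ count cannot tell isoforms apart, and these rows are read as uncertain in isoform. Pcdha13 was even across neurons, from 365 CPM (ET) to 492 (NP) in saline excitatory subclasses, and lower in astrocytes (83.6 and 82.3). Pcdhgc3 was instead highest in astrocytes, at 213 and 198 CPM against 78.7 and 75.0 in excitatory neurons. Pcdhb10, the best counted beta member, stood at 16.1 and 12.5 CPM in excitatory and 10.7 and 12.3 in inhibitory neurons. The other clustered members had between 106 and 300 UMIs.

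The remaining members were low or broad. Pcdh7 and Pcdh10, both delta protocadherins, had no restricted class: Pcdh7 stood at 162 and 88.4 CPM in precursors, 93.9 and 82.5 in excitatory, 84.3 and 79.2 in inhibitory neurons and 102 and 80.6 in astrocytes. Pcdh10 stood at 77.2 and 76.2 CPM in excitatory neurons, 47.7 and 51.3 in inhibitory neurons and 88.0 and 84.9 in astrocytes. Pcdh1 and Cdh22 leaned to excitatory neurons, at 26.9 and 25.5 CPM and 22.8 and 23.8, against 12.6 and 10.0, and 5.10 and 3.38, in inhibitory neurons. Pcdh20 was highest in oligodendrocytes (66.0 and 38.1 CPM). Cdh6 was spread over excitatory neurons (73.4 and 59.2 CPM), oligodendrocytes (78.3 and 79.0) and precursors (68.6 and 93.8). Mural cells had 85.7 and 158 CPM, from 17 and 28 UMIs. In saline the interval of the mural level, 49.9 to 137, held the other 3 levels. In METH the mural level was above the other 3. Pcdh8 was at most 9.32 CPM in any of the 7 classes. In the 7 classes together, 6 members had under 100 UMIs: Cdh15, Cdh23, Cdh24, Pcdhgb8, Pcdhb21 and Pcdhga10.

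The study's question was how 7 days of METH changed these cells. A member was measured in a class when its UMIs there summed to 100 and its level reached 20 CPM in METH or saline. It was called when its whole 95% interval for the METH to saline ratio (exact conditional binomial, counting error only) lay beyond 1.5-fold. No member was called in excitatory neurons (22 measured), inhibitory neurons (19), astrocytes (11), oligodendrocytes (8), oligodendrocyte precursors (10) or mural cells (3). Over all measured genes the same rule called 0.336% in excitatory neurons, 0.265% in inhibitory neurons, 0.772% in astrocytes, 0.886% in oligodendrocytes, 0.115% in precursors and 1.46% in mural cells, so a count of 0 among so few members is near that background. These ratios compare shares of RNA. Scaled to UMIs per nucleus instead, the median of all genes moved by 0.51 in excitatory and 0.46 in inhibitory neurons on the log2 scale, towards METH.

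In excitatory neurons 17 of 22 members were below 0 on the log2 scale and 5 above, with a median of -0.08 against -0.01 for all 7142 measured genes. Of all those genes 54.2% were below 0. Per nucleus, 1 of 22 was below 0, with a median of 0.44 against 0.51 for all genes. The largest ratio was that of Cdh4, which had 43.2 CPM in saline and 27.4 in METH (log2 ratio -0.66, interval -0.80 to -0.51). Cdh10 followed with 932 CPM in saline and 706 in METH (-0.40, -0.43 to -0.37; per nucleus 0.12, below the shift of all genes), and then Cdh12 with 575 and 452 (-0.35, -0.38 to -0.31). The METH library held a smaller part of layer 4/5 IT nuclei (432 of 2150 against 1052 of 3492). Cdh12 had its highest level there among named excitatory subclasses, at 847 CPM in saline and 657 in METH. Cdh10 was instead highest in layer 5 IT, with 219 METH and 438 saline nuclei. The part of this mix in the ratios was not tested beyond the weighting below, which is not given for Cdh12. With clusters weighted alike in both libraries the ratio was -0.46 for Cdh4 and -0.27 for Cdh10, and with nuclei matched on total UMIs both genes were called lower, Cdh10 at -0.64.

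Within subclasses the Cdh10 difference was uneven. The ratio was -0.65 (-0.82 to -0.48) in CT neurons, -0.35 (-0.40 to -0.29) in layer 2/3, -0.28 (-0.34 to -0.23) in layer 5 IT and -0.13 (-0.18 to -0.08) in layer 4/5 IT. In ET neurons it was -0.01 (-0.13 to 0.10), in NP neurons 0.27 (-0.21 to 0.77), and in inhibitory neurons -0.05 (-0.11 to 0.02). These intervals leave out the spread between rats, and no test of a difference between subclasses was possible.

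Cdh18 and Cdh13 lay on the other side in excitatory neurons, at 0.19 (0.15 to 0.22) and 0.11 (0.07 to 0.14). Both lay well inside the 1.5-fold limit. Cdh13 had 906 CPM in saline and 904 in METH layer 2/3, 1437 and 1251 in ET and 211 and 189 in layer 4/5 IT. It was higher in METH in layer 5 IT, NP and CT. Cdh18 had 407 and 406 CPM in layer 2/3 and was higher in METH in every other named subclass. The METH library held a larger part of layer 2/3 nuclei (649 of 2150 against 819 of 3492), whose effect on these ratios was not tested. In inhibitory neurons the members with the largest ratios were Pcdh19 (81.9 CPM in saline, 66.8 in METH; -0.29, -0.47 to -0.12) and Cdh7 (257 and 212; -0.27, -0.37 to -0.17), and 15 of 19 members were below 0 with a median of -0.09 against -0.01 for all genes. Of all genes measured there 52.7% were below 0. Per nucleus 0 of 19 were below 0, Pcdh19 was at 0.17 and Cdh7 at 0.19, under the 0.46 of all genes; with TMM scaling 13 of 19 were below 0.

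**Figure D4:**
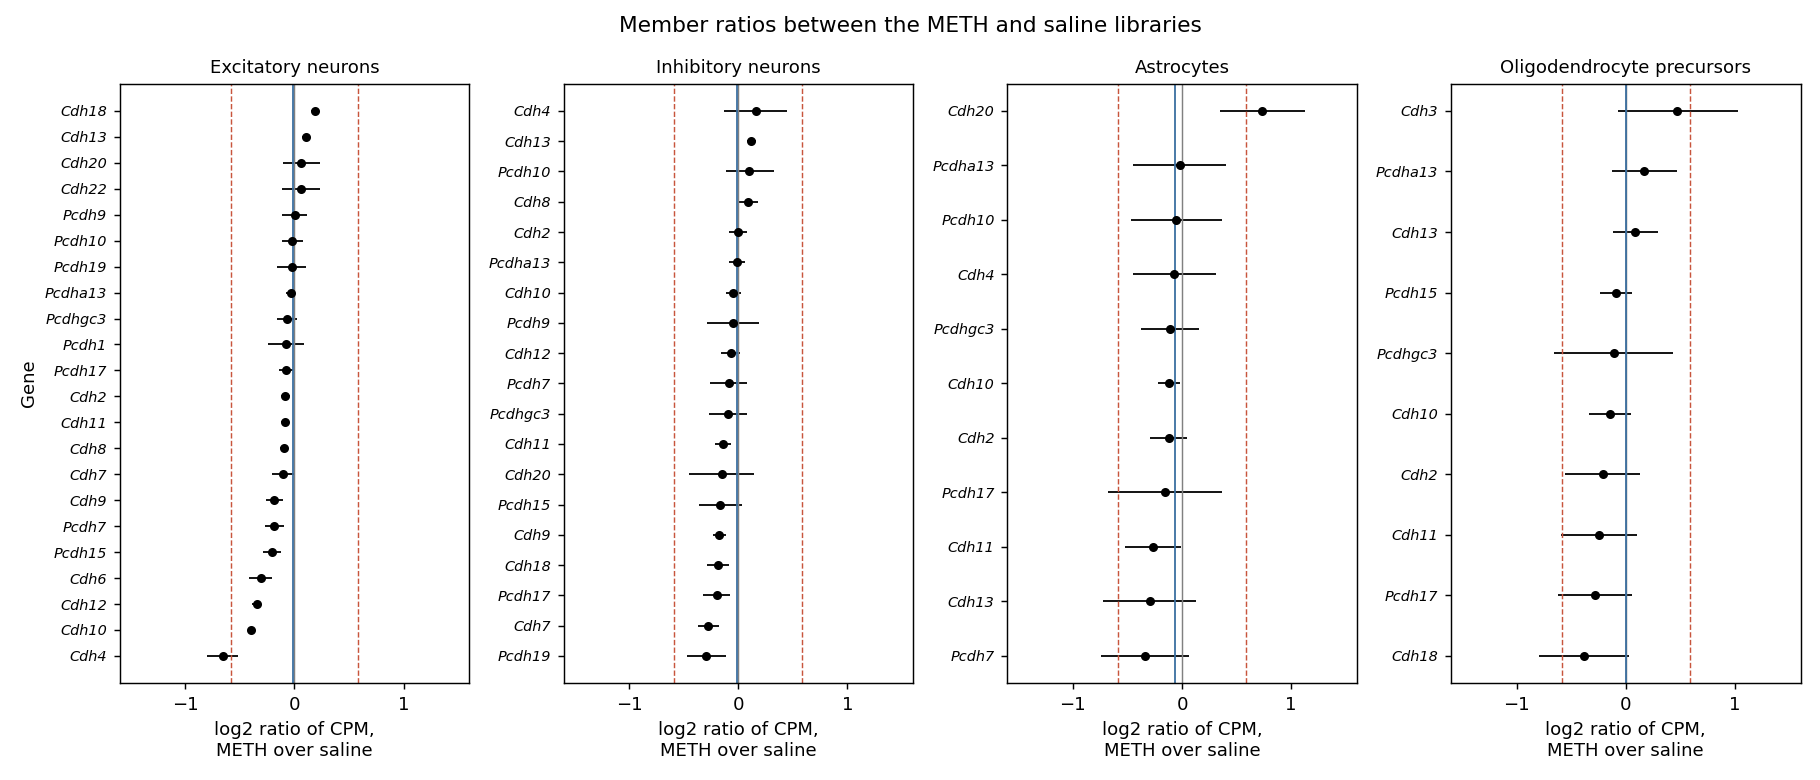
Log2 ratio of CPM, METH over saline, for the measured members of 4 classes, 1 point per gene with its exact conditional binomial 95% interval. Dashed red lines mark 1.5-fold, the blue line the median of all measured genes and the grey line 0. No interval lies wholly beyond a dashed line, and most points are left of 0 in both neuron classes.

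In astrocytes 10 of 11 members were below 0 (median -0.12, all genes -0.07 with 61.4% of them below 0), 7 of 11 with TMM scaling and 1 of 11 per nucleus. The exception, Cdh20, a type II cadherin, had 78.4 CPM in saline and 130 in METH (0.73, 0.35 to 1.13). The next largest was Pcdh7 at 102 and 80.6 CPM (-0.34, -0.75 to 0.07). In oligodendrocytes 4 members were above and 4 below 0 (67.7% of all genes were below 0), whereas 2 of 8 were below 0 with TMM scaling and 1 of 8 per nucleus. The largest ratios were those of Pcdh17 (53 UMIs in saline and 82 in METH; 0.56, 0.05 to 1.09; -0.11 when thinned and -0.15 with nuclei matched on UMIs) and Cdh11 (190 UMIs in saline and 139 in METH; -0.52, -0.85 to -0.20). Excitatory markers stood there at 10.9% of their excitatory level in saline and 7.48% in METH, and their part in the Cdh11 value was not tested. Among the 10 members measured in precursors, Cdh3 had the largest ratio (0.47, -0.07 to 1.03), followed by Cdh18 (-0.38, -0.80 to 0.03). All 10 intervals held 0. The Pcdh7 levels in precursors, given above, lay further apart, but Pcdh7 fell short of the UMI minimum there and was not ranked. In mural cells Pcdha13 was at 514 and 400 CPM (-0.36, -0.82 to 0.09) and Cdh10 at 282 and 343 (0.28, -0.26 to 0.83).

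The single call was Cdh11 in endothelial cells, at 369 CPM in saline (89 UMIs) and 163 in METH (35 UMIs), a log2 ratio of -1.18 (-1.79 to -0.60). Of the 884 genes measured there, 3.05% were called in either direction, 2.04% were called lower in METH, and 45.7% were below 0. All 4 measured members were below 0 (3 of 4 with TMM scaling). The summed excitatory markers also stood lower in METH endothelium, at 704 CPM against 1096 in saline. The call rested on 11 deep nuclei, 8 saline and 3 METH, with medians of 8336 and 11103 UMIs, that 4 other clusterings alike did not place in endothelium. The 8 saline nuclei held 70 of the 89 saline Cdh11 UMIs, and the 3 METH nuclei 11 of 35. In the remaining 154 saline and 142 METH nuclei Cdh11 was at 113 and 137 CPM, and the ratio was 0.29 (-0.64 to 1.23).

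No member was called in any of the 11 neuron subclasses. The share of all measured genes called was 0.326% in layer 2/3, 0.225% in layer 4/5 IT, 0.199% in layer 5 IT, 0.315% in ET, 0.14% in NP and 0.377% in CT neurons, and 0.182% in Pvalb, 0.327% in Sst, 0.121% in Vip, 0.455% in Lamp5 and 0.108% in Sncg interneurons. In layer 2/3, 20 of 22 members were below 0, with a median of -0.16 against -0.03 for all genes, of which 56.8% were below 0. Per nucleus only 1 of 22 members was below 0, with a median of 0.33 against 0.47. In NP neurons 11 of 16 members were above 0 with a median of 0.03 against 0.02, where 46.9% of all genes were below 0. With nuclei matched on UMIs, however, 9 of 11 members were below 0, with a median of -0.10 against 0.02.

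The largest subclass value was that of Cdh6 in CT neurons, at 42.5 CPM in saline and 21.0 in METH (-1.02, -1.53 to -0.52). It passed the rule only when the nucleus with most Cdh6 UMIs was left out of each library (-1.21). Cdh4 was the member with the largest ratio in layer 2/3 (-0.67, -1.01 to -0.34) and layer 5 IT (-0.57, -0.87 to -0.28), and the next after Cdh6 in CT (-0.72, -1.28 to -0.17). Cdh20 had a ratio of 0.40 (0.06 to 0.74) in layer 2/3, 0.55 (0.18 to 0.92) in ET and -0.42 (-0.88 to 0.04) in layer 5 IT.

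In the other excitatory subclasses the leading values were those of Cdh7 (-0.53, -0.80 to -0.27) and Cdh6 (-0.37, -0.58 to -0.17) in layer 4/5 IT, Pcdh19 in ET (-0.70, -1.07 to -0.33), and Pcdh9 (0.78, 0.18 to 1.41) and Cdh13 (0.74, 0.14 to 1.38) in NP. Among interneurons Pcdh19 led in Sst (90.4 CPM in saline and 62.3 in METH; -0.54, -0.90 to -0.18) and in Vip (-0.54, -1.11 to 0.03), where Pcdh17 was next (-0.46, -0.88 to -0.04). Cdh4 was next in Sst (0.30, -0.09 to 0.70). In Pvalb interneurons the pair was Cdh20 (-0.40, -0.87 to 0.07) and Cdh7 (-0.36, -0.50 to -0.22), in Lamp5 Cdh10 (0.26, -0.01 to 0.53; -0.53 when thinned and -0.32 with nuclei matched on UMIs) and Cdh13 (-0.22, -0.57 to 0.13), and in Sncg Pcdhgc3 (-0.68, -1.22 to -0.13) and Cdh12 (0.64, 0.03 to 1.29). Other subclass ratios that turned were, per nucleus, those of Cdh7 (0.01) and Cdh6 (0.17) in layer 4/5 IT, Cdh4 (0.11) and Cdh20 (0.27) in layer 5 IT, Cdh20 (0.11) and Cdh7 (0.15) in Pvalb and Cdh13 (0.34) in Lamp5, and, when thinned, that of Pcdh19 in Vip (0.03).

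The catenins and other partners of cadherins were followed as a list of 40 genes, of which 36 reached 100 UMIs. In excitatory neurons 28 were measured, 19 below and 9 above 0, with a median of -0.04, and 0 were called, where 0.336% of all genes were. Of all genes measured there 54.2% were below 0. The widest values were those of the atypical cadherins Fat3 (774 CPM in saline, 636 in METH; -0.28, -0.32 to -0.25) and Fat1 (-0.27, -0.40 to -0.14). In inhibitory neurons 30 were measured with a median of -0.05 and 0 calls (all genes 0.265%), led by the adhesion molecule Nectin3 (-0.36, -0.60 to -0.13) and Fat1 (-0.28, -0.51 to -0.04). In astrocytes 0 of 22 were called (all genes 0.772%), led by Ctnnd1, p120-catenin, which holds cadherins at the membrane (-0.54, -0.86 to -0.23), and Fat3 (-0.40, -0.66 to -0.15).

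The one partner called was Ptprm, a receptor phosphatase that associates with cadherins, in oligodendrocytes, where 18 were measured and of all genes 0.886% were called in either direction and 0.308% as higher in METH. It had 149 CPM in saline (97 UMIs) and 401 in METH (274 UMIs), a ratio of 1.43 (1.09 to 1.78). Fat3 was the next there (-0.91, -1.43 to -0.40). None of 14 was called in precursors (all genes 0.115%), where Wasf1 (-0.79, -1.39 to -0.22) and Afdn (0.52, -0.03 to 1.07) led. None of 11 was called in endothelium (all genes 3.05%), led by Ctnnd1 (0.83, 0.31 to 1.37) and Fat3 (-0.80, -1.38 to -0.24), and none of 5 in mural cells (all genes 1.46%), led by Ptk2 (0.28, -0.10 to 0.65) and Clstn1 (-0.24, -0.84 to 0.35).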

How the data were processed

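The deposited matrices are unnormalized UMI counts, genes by barcodes, which the authors made with Cell Ranger 7.0.0, per the submitters' processing notes; libraries were 10x 3′, per the labels' protocols. The notes name a human build although gene IDs are rat Ensembl IDs, so the rat build is not known here and no coordinates were taken from the files. Barcodes needed 500 genes and at most 5% mitochondrial UMIs, and Scrublet calls (5.98% of METH, 6.06% of saline) were removed. Nuclei of both libraries were clustered together with scanpy 1.11.5 (2000 variable genes without the family, 30 components, 15 neighbours, Leiden resolution 1, 0.5 within neurons). Clusters were named from marker lists, with naming thresholds set after clusters were seen. Counts were summed per library and class (50 nuclei or more in each) and given as CPM. Intervals are exact (95%) and cover counting error only. They were tested on simulated data that held counting error alone. Clumping of a gene's UMIs in a few nuclei was not simulated. Named are members called or, with none called, the 2 largest ratios per class, restricted members, the 10 best counted, and partners by the same rule. Neuron subclass pairs were chosen likewise. Values outside this rule were chosen after they were seen. Members and lists were chosen with earlier results of these data known. Alternatives included TMM factors (edgeR 4.0.16, R 4.3.3), other filters and clusterings, UMIs per nucleus, thinning to 1000 UMIs and nuclei matched on UMIs.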

Additional observations from a re-analysis of the deposited data

Results flagged for a closer look

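In clusters that received no name and entered no comparison, 2 members stood above their level in every named class. Cdh19 in the cluster led by AABR07004228.1 and Bnc2, of 33 METH and 3 saline nuclei, was at 1132 CPM in METH (77 UMIs, 95% Poisson interval 893.6 to 1415) and 2315 in saline (13 UMIs, 1233 to 3958). Its highest named class, oligodendrocytes, had 258 and 269. Cdh23 in the cluster led by Ikzf1 and Slco2b1, of 38 METH and 76 saline nuclei, was at 215 CPM in METH (13 UMIs, 114 to 367) and 331 in saline (35 UMIs, 231 to 460.5). Its highest named class, committed oligodendrocyte precursors, had 19.4 and 24.7.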

How the results depend on the processing

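Of 278 recomputed single ratios, 227 stayed within their main counting interval and 45 moved. Another 6, all of Cdh11 in endothelium, turned as called values, and 21 in all had the other sign. Of 188 counts and levels, 164 stayed and 24 moved. In every group but endothelium the main count was 0, so the 2-fold rule could only repeat it. The same holds for settings that left 0 members measured, as thinning did in mural and Lamp5 nuclei. The 164 is therefore no measure of stability. Cdh11 in endothelium was 0.30 on the log2 scale with at most 1% mitochondrial UMIs, 0.29 with family genes kept for clustering, with Leiden resolution 0.5, with Leiden resolution 2 and with centring on each library, and 0.35 when thinned. The endothelial count of called members was 0 in those settings, and also with TMM scaling, the 2-fold rule and nuclei matched on UMIs. It was 0 too without the nucleus with most UMIs and in nuclei without excitatory marker UMIs (91 METH and 93 saline). The last was an alternative chosen after seeing the data. Only 1 member was measured with at most 1% mitochondrial UMIs, in the other clusterings and with nuclei matched on UMIs. When thinned, and without excitatory marker UMIs, 0 were measured. In the other clusterings Cdh11 had 19 saline and 24 METH UMIs, under the 100 needed. A count of 0 was fixed beforehand where Cdh11 was not measured, and says nothing about it. The endothelial Cdh11 call was kept without doublet removal, per nucleus and with at least 30 UMIs. Per nucleus, members called higher were 2 in excitatory neurons (Cdh13, Cdh18; 636 of all 7142 genes were called there), 1 in astrocytes (Cdh20; 43 of 4663), 1 in layer 4/5 IT (348 of 7108), 4 in layer 5 IT (1210 of 7027), 3 in ET (508 of 6984), 2 in NP (245 of 5007) and 1 in CT neurons (450 of 6888), a scaling that raises the median of all genes. With nuclei matched on UMIs members called, all lower, were 2 in excitatory neurons (Cdh4, Cdh10; 43 of 7129 genes), 1 in CT (Cdh10; 32 of 5578) and 1 in Sncg (Cdh8; 13 of 1581). Without the nucleus with most UMIs of the gene, 1 was called in CT (Cdh6; 29 of 6747 genes). With at least 30 UMIs, 1 was called in Vip (Pcdh18; 12 of 8069 genes) and 1 in Lamp5 (Cdh9; 32 of 6716), beside Cdh11 in endothelium (63 of 3514). The cause of these moves was not tested. No paired analysis was possible because each group has 1 library, and for the same reason no replicate could be left out. Requiring 1000 genes left endothelial and mural nuclei unnamed, so no value exists there, and classes of a single cluster have no weighted value.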
